A study of Mus musculus with 96 samples.

Results

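The primary liver tumours that the series calls PNR were compared with normal mouse liver. The comparison uses the 9 libraries whose description names dissected PNR primary tumour and the 6 whose description names dissected normal liver, 15 of the 96 libraries of the series. The series sets normal liver, liver organoids (cultures of liver cells grown in 3 dimensions) and primary liver tumours of mice side by side, and its title concerns organoids made from primary tumours and their part in metastasis. Both groups are labelled as mouse tissue with no treatment, total RNA isolated with a column kit and libraries that keep the strand. The labels give no strain, genotype, allele, age or sex for either group, do not expand PNR, and leave unsaid whether each library is its own animal or whether tumour pieces were pooled. P-values therefore measure the spread between libraries, which may be technical in part. A 3D culture note stands under growth for the dissected tissue too.

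RNA abundance was measured by sequencing. A deposited file holds read counts for 34591 gene symbols in 1 library. The livers had 9478377 to 29423985 gene counts and the tumours 15167022 to 48496656. A level below is in CPM, the gene's count as a share of all gene counts on the usual CPM scale, after TMM scaling, and 3 values in a row are the lowest, the median and the highest library of a group. Differences are fitted log2 fold changes of tumour over liver, followed by ± and the standard error, and "rose", "fell", "higher" and "lower" are called at an adjusted p under 0.05 in edgeR's quasi-likelihood test over all 15739 genes tested. A level of a gene is not compared with that of another gene, since CPM does not allow for gene length. Libraries carry numbers in accession order, which only name them. In that order all PNR libraries stand in a later block than all normal livers. Tumour and liver can therefore not be told apart from a difference between the blocks.

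Reads of ribosomal-repeat features took 0.919% to 2.068% of gene counts in the tumours and 10.68% to 26.02% in the livers, and mitochondrially encoded mRNA took 1.73% to 3.196% and 0.8525% to 1.219%. Neither range overlapped between the groups (exact two-sided permutation test over all labelings of the 15 libraries, p = 0.0004 for each, the smallest this test can give, adjusted p = 0.0004). Tumour and liver cannot be told apart from this difference in library makeup. 7 of the tumour libraries fell into closely matching sets, namely tumours 2 and 3, tumours 4, 5 and 6, and tumours 7 and 9, with a standard deviation of the log2 count ratio across genes of 0.17 to 0.27 within a set, against 0.84 to 1.18 for other pairs of tumours apart from those of tumour 1 with 2 and 3 (0.37 and 0.46), and 0.5 to 1.04 between livers. No pair agreed within sampling noise, so all 9 were kept. Separate libraries of 1 tumour can also differ by more than sampling noise, so this does not show that the 9 are independent. P-values over the 9 may thus count a tumour more than once. A pattern seen only within 1 set may be that of 1 tumour. Both labels were checked against hepatocyte markers. Albumin mRNA (Alb) ran from 3033 to 10504 CPM in the tumours and from 26698 to 57070 CPM in the livers. Hnf4a, a transcription factor that defines hepatocytes, ran from 205 to 390.1 and from 332 to 549.7 CPM. Its log2 difference was -0.41 ± 0.17 (adjusted p = 0.058), called without tumour 2 or 3 (adjusted p = 0.043 and 0.044). Over all 9 tumours Hnf4a was called lower in DESeq2 (adjusted p = 0.015) and in edgeR's test with RLE scaling (adjusted p = 0.038).

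Of the 15739 genes tested, 4157 (26.4%) were higher and 3355 (21.3%) lower in the tumours, 47.7% in either direction, 2413 (15.3%) and 1917 (12.2%) of them by more than 2-fold. In 1507 genes (9.57%) every tumour lay above every liver, and in 1327 (8.43%) every tumour lay below. The median log2 fold change of all genes was 0.11. Counts of listed genes below are read against these shares.

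Insulin-like growth factor 2 is a fetal growth factor whose gene, Igf2, lies beside the non-coding RNA gene H19 in an imprinted cluster, in which each gene is normally read from 1 parental copy. Both are abundant in fetal liver and are silenced after birth, while Igf1 is made by the adult liver under growth hormone. The Dlk1-Meg3 cluster is a separate imprinted region with the non-coding RNA genes Meg3, Rian and Mirg and the protein genes Dlk1, Rtl1 and Dio3. Notch receptors are cleaved when a ligand on a neighbouring cell binds, and the freed part joins the DNA-binding protein RBPJ to switch on genes of the Hes and Hey families and Nrarp, a feedback inhibitor. In the liver this pathway directs fetal progenitors towards bile duct cells. Wnt proteins from the endothelium of the central vein act through beta-catenin and TCF factors and keep hepatocytes around that vein in a perivenous state, marked by glutamine synthetase (Glul), while hepatocytes around the portal vein make urea and glucose.

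For 4 genes of the Notch and Wnt results the promoter is shown, because their factors have well known short motifs. The sequences are those of RefSeq on GRCm38.p6, from 250 bases before to 50 bases after the gene's start, written 5′ to 3′ on the gene's strand. Capitals mark matches, on either strand, to GTGGGAA for RBPJ in the Notch target promoters and to ATCAAAG for TCF in the Wnt target promoters. The motifs do not overlap each other. Hey2 and its motif matches were chosen after the values were seen.
Hey2, chr10:30842734-30843033, minus strand: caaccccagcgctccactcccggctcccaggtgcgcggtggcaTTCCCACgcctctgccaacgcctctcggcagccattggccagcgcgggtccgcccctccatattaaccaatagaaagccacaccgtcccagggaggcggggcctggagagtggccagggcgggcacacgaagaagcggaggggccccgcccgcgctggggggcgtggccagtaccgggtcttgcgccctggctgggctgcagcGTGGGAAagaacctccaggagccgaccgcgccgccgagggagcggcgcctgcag
Nrarp, chr2:25180508-25180807, plus strand: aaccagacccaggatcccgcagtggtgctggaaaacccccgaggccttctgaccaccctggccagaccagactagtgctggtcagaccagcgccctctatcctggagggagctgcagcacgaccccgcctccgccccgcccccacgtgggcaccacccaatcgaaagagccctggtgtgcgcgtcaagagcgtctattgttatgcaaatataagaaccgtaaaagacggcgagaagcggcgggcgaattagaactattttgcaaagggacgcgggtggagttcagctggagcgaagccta
Sp5, chr2:70474673-70474972, plus strand: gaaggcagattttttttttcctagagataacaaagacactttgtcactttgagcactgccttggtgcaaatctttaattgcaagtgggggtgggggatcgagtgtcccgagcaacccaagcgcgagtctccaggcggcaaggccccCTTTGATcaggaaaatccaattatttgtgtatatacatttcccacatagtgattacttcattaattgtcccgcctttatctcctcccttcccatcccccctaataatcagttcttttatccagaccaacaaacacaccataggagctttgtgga
Slc1a2, chr2:102706188-102706487, plus strand: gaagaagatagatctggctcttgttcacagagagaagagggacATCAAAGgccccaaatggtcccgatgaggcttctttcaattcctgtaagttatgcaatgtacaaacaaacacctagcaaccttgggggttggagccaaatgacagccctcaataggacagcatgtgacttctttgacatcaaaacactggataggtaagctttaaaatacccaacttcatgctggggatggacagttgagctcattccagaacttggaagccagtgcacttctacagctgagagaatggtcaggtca
The Hey2 promoter held 2 matches to the RBPJ motif, which began 207 and 4 bases before the start, and the Nrarp promoter held 0. The Sp5 promoter held 1 match to the TCF motif 104 bases before the start and the Slc1a2 promoter 1 at 207 bases before it. Of 32851 promoters of 27025 genes in the RefSeq table, 2097 (6.38%) held the RBPJ motif and 1225 (3.73%) the TCF motif. Among the listed Notch target genes 9 of 17 had an entry, and 3 of their 10 promoters held the RBPJ motif (those of Hes5, Hes7 and Hey2). Of the Wnt feedback targets 7 of 11 had an entry, with the TCF motif in 2 of 9 promoters (Sp5 and Tnfrsf19), and of the perivenous genes 11 of 16, with the motif in 3 of 11 (Cyp2c29, Lect2 and Slc1a2). The entries of Axin2, Nkd1 and Glul, which are described below, held no match to the TCF motif. Of the genes with a match, Hes5 and Hes7 were not among the genes tested, and Cyp2c29 and Lect2 were not called. A match describes these letters and is not a measured binding site.

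Igf2 and H19 were among the most changed genes of the comparison. Igf2 stood at 565, 1959 and 2788 CPM in the tumours and at 0, 0.252 and 0.316 CPM in the livers, a log2 fold change of 12.96 ± 0.70 (adjusted p = 1.38e-08). Tumour 5 had the lowest Igf2 level and tumour 1 the highest, and no tumour came near a liver. H19, the non-coding neighbour, stood at 1015, 2730.5 and 3830.2 CPM against 0.118, 0.698 and 1.48 CPM (11.86 ± 0.73, adjusted p = 3.96e-08). Igf1 moved the other way, at 3.85, 33.9 and 242 CPM against 178, 432 and 633 CPM (log2 fold change -3.06 ± 0.73, adjusted p = 0.0031). Tumour 8 was the exception for Igf1, with 242 CPM, inside the range of the livers, while the other 8 tumours lay at or under 49.8 CPM. The fourth listed ligand gene, Ins2, did not reach the filter on low counts.

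Among the receptors, Igf2r, which binds IGF2 and clears it, rose from 70.3, 99.01 and 116 CPM in the livers to 90.3, 261 and 468 CPM (1.53 ± 0.33), and the adaptor Irs2 rose from 9.05, 11.4 and 44.6 to 42.2, 57.3 and 93.3 CPM (1.55 ± 0.39). The receptor genes that pass the signal on were not called. Igf1r had 1.31, 4.27 and 25.6 CPM against 1.85, 3.73 and 6.297 CPM (1.11 ± 0.63), Insr had a log2 difference of 0.16 ± 0.17 and the adaptor Irs1 one of 0.54 ± 0.53. Airn, the RNA made across Igf2r on the other strand, stood at 2.397, 8.41 and 18.5 CPM against 0.264, 0.702 and 4.07 CPM (3.03 ± 0.64). How counting treated strand is not given in the sources used here, so reads of Airn and Igf2r may not be cleanly separated, and the same holds for Rtl1 and its antisense partner.

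The binding proteins, which carry IGFs in blood and tissue, split. Of 8 listed and tested, 3 rose and 4 fell. Igfbp1 rose from 3.25, 49.7 and 377 CPM to 352, 1005 and 2309 CPM (3.56 ± 0.95) and Igfbp3 from 7.38, 14.8 and 25.1 to 7.59, 53.9 and 402 CPM (2.91 ± 0.78, or 1.18 without tumours 4 to 6). Igfbp2 fell from 177, 453 and 1178 to 25, 56.02 and 366 CPM (-2.02 ± 0.62, or -3.37 without tumours 1 to 3), and Igfals, the subunit that stabilises IGF1 in the circulation, from 51.1, 125 and 158 to 16.4, 22.7 and 35.7 CPM (-2.24 ± 0.24). Igfals and Igfbp4 were the members in which every tumour lay below every liver. Igfbp4 had 374, 629.6 and 668 CPM against 743, 874 and 1096 CPM (-0.60 ± 0.16), Igfbp7 fell by 1.16 ± 0.38 (adjusted p = 0.019, and 0.053 without liver 4), Igfbp6 rose and Igfbp5 was not called. With each matching set counted once Igfbp2 was not called (-1.72, adjusted p = 0.056), nor was Igfbp4 with tumour 1 joined to 2 and 3 (adjusted p = 0.054), nor Igfbp7 without tumours 1 to 3 (adjusted p = 0.079). Of the RNA-binding proteins that bind Igf2 mRNA in the fetus, Igf2bp1 stayed at or under 0.364 CPM in every tumour and at 0 in every liver and did not reach the filter. Igf2bp3 was called higher (3.33 ± 1.20, adjusted p = 0.032), yet the median tumour had 0.312 CPM, within the liver range of 0.0451 to 0.409, and the call was lost without liver 1, 3, 5 or 6 (adjusted p of 0.052 to 0.067).

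All 6 genes of the Dlk1-Meg3 cluster were higher in the tumours. Meg3 stood at 99.7, 270.0 and 419 CPM against 0, 3.01 and 10.01 CPM (6.07 ± 0.90, adjusted p = 8.88e-05), Rian at 212, 388 and 591 CPM against 0.185, 5.297 and 25.6 CPM (5.76 ± 0.90) and the microRNA host Mirg at 13.4, 35.9 and 56.4 CPM against 0, 0.551 and 1.67 CPM (5.63 ± 0.57). Every tumour lay above every liver for these 3 and for Rtl1, which had 0 counts in all 6 livers and 1.13, 3.35 and 55.3 CPM in the tumours, at least 307-fold higher against a floor of 3 counts over the liver group. The high values of Rtl1 were those of tumours 7 (54.7 CPM) and 9 (55.3 CPM). Dlk1, the protein ligand that names the cluster, remained low at 0.0195, 0.416 and 3.403 CPM, against at most 0.0451 CPM in a liver, a ratio of 61.6 with a counting interval of 10.98 to 2439 (exact, 95%), and Dio3, a thyroid hormone inactivating enzyme, at 0.0491, 0.829 and 1.21 CPM.

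Other imprinted genes did not move as a block. Of 12 tested of 20 listed, 4 were higher and 2 lower, the latter between 0 and 2 as single libraries were left out. Grb10, an adaptor that restrains insulin and IGF receptors, rose from 4.29, 6.86 and 10.1 to 7.76, 103 and 239 CPM (3.92 ± 0.75). Peg3, a zinc finger gene, ran from 0.0234 CPM to 1398 CPM in tumour 7 and 1265 CPM in tumour 9, with at most 13.2 CPM in the other 7 tumours and 3.64, 8.84 and 258 CPM in the livers, and was not called (2.40 ± 2.05, adjusted p = 0.34). Without tumours 7 and 9 Peg3 fell by 4.54 (adjusted p = 0.017).

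**Figure D1:**
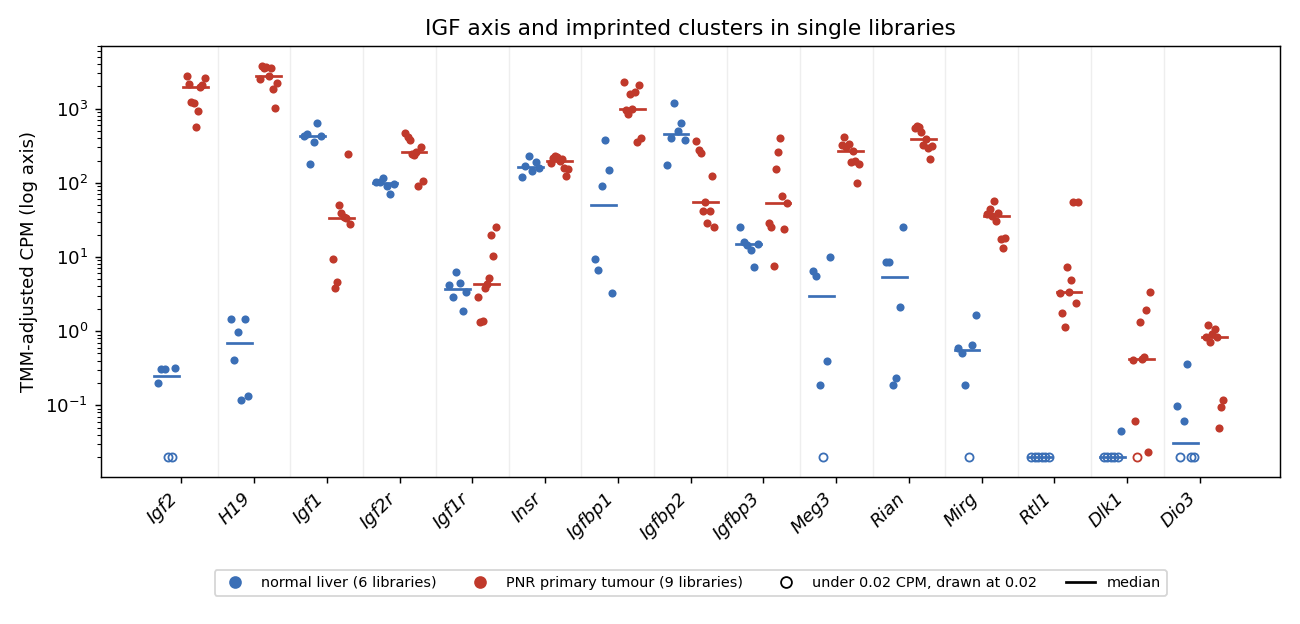
TMM-adjusted CPM (log axis) of genes of the IGF axis and of the Dlk1-Meg3 cluster. Each point is 1 library, blue for the 6 normal livers and red for the 9 PNR tumours, lines are medians, and open points mark libraries under 0.02 CPM. Igf2, H19, Meg3, Rian and Mirg of every tumour sit above those of every liver, while Igf1 sits below in all but tumour 8.

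The Notch pathway was next, from receptors to targets. Of 4 receptors, Notch1 rose from 30.97, 38.9 and 80.1 to 70.8, 104.5 and 147 CPM (1.23 ± 0.22, adjusted p = 3.60e-04) and Notch4, the endothelial receptor, from 1.19, 3.37 and 5.205 to 3.13, 10.2 and 43.8 CPM (2.22 ± 0.59, adjusted p = 0.0062). Notch4 was highest in tumours 4, 5 and 6, at 28.6, 31.7 and 43.8 CPM, and its log2 fold change was 1.02 without them (adjusted p = 0.034). Notch2, the receptor of bile duct development, had 80.4, 106 and 217 CPM against 75.6, 94.2 and 142 CPM (0.30 ± 0.25, not called), and Notch3 a log2 difference of -0.03 ± 0.48. The groups overlapped for all 4, and for Notch1 the overlap came from liver 3 with 80.1 CPM. Among the ligands, Jag2 rose from 0, 0.1 and 0.237 to 0.527, 1.78 and 7.13 CPM (4.34 ± 0.77) with no overlap. Dll4, a ligand of growing vessels, was called higher (1.34 ± 0.49, adjusted p = 0.034), with tumours 4, 5 and 6 at 25.3, 26.6 and 38.4 CPM and the liver range at 4.48 to 7.93 CPM. Dll4 was no longer called without any 1 of tumours 4, 5 and 6 or of livers 2, 3, 5 and 6 (adjusted p of 0.051 to 0.065), nor with each matching set counted once (adjusted p = 0.11), and the other endothelial genes that are high in tumours 4 to 6 are given below. Jag1 (0.71 ± 0.39) and Dll1 (-0.26 ± 0.18) were not called. In the processing machinery and the co-factors of the receptor, 4 of 22 genes rose and 3 fell, both under the shares of all genes. Examples are Ncstn, a subunit of the cleaving secretase (1.04 ± 0.25), and Lfng, which modifies the receptors with sugar (-1.62 ± 0.41).

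Most of the target genes rose. Of 14 tested of 17 listed, 11 were higher and 1 lower, beside 26.4% and 21.3% of all genes, and in 8 of them every tumour lay above every liver, beside 9.57%. Nrarp stood at 11.3, 23.6 and 81.7 CPM against 0.264, 0.524 and 1.42 CPM (5.86 ± 0.61, adjusted p = 4.96e-06). Heyl stood at 6.44, 17.5 and 42.1 CPM against 0.264, 1.04 and 4.14 CPM (4.004 ± 0.56, adjusted p = 5.82e-05) and Hes1 at 38.5, 66.9 and 102 CPM against 6.62, 15.1 and 19.3 CPM (2.17 ± 0.26, adjusted p = 1.52e-05). Nrarp split the tumours, with 70.7, 81.7 and 72.9 CPM in tumours 1, 2 and 3 and at most 28.6 CPM in the rest. The Hey family members were read at few counts. Hey1, at 1.43, 3.33 and 11.2 CPM against 0, 0.498 and 0.864 CPM (3.08 ± 0.62), and Hey2, at 0.554, 2.71 and 8.78 CPM against 0, 0.217 and 0.541 CPM (3.80 ± 0.72), whose promoter is shown above, were chosen after their values were seen. Sox9, a transcription factor of bile duct cells, also stood above every liver, with 16.7, 47.4 and 89.1 CPM against 1.22, 1.87 and 5.74 CPM (4.23 ± 0.53). Hes6, which counters Hes1, was the target that fell, from 18.2, 51.4 and 87.3 to 7.57, 11.97 and 13.8 CPM (-2.20 ± 0.29), and every tumour lay below every liver.

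**Figure D2:**
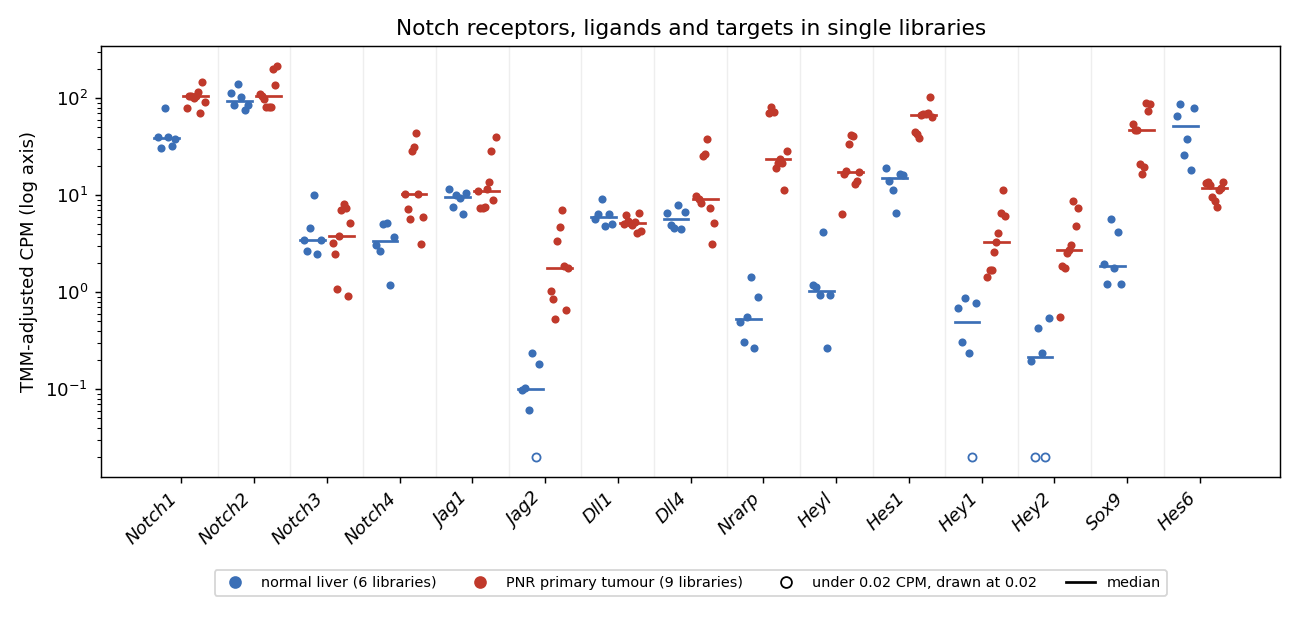
TMM-adjusted CPM (log axis) of Notch receptors, ligands and targets, with 1 point per library, blue for the 6 normal livers and red for the 9 PNR tumours, and lines at the medians. Receptor levels overlap between the groups, whereas Nrarp, Heyl, Hes1 and Sox9 of every tumour lie above every liver and Hes6 below.

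The genes that report Wnt signalling divided the tumours. Axin2, a feedback inhibitor used as a readout of beta-catenin, stood at 68.3, 74.5, 71.7, 66.9, 65.1, 67.2 and 77.99 CPM in tumours 1 to 6 and 8. It stood at 4.07 and 3.23 CPM in tumours 7 and 9, and at 3.67, 4.63 and 11.1 CPM in the livers (3.25 ± 0.65, adjusted p = 9.61e-04). Thus 7 tumours lay above every liver and 2 lay below the liver median. Lgr5, a receptor for R-spondins, followed the same split, with 1.33 and 1.82 CPM in tumours 7 and 9, a median of 92.9 CPM over the 9 and 3.82, 5.06 and 17.3 CPM in the livers (3.41 ± 0.83). Sp5, a transcription factor gene, had 0.0491 and 0.0967 CPM in those tumours, a median of 13.8 CPM and at most 1.67 CPM in a liver (3.66 ± 0.98). Of 9 feedback targets tested, 6 rose and 0 fell. Znrf3 and Rnf43, the ligases that remove Wnt receptors, rose by 2.07 ± 0.33 and 1.54 ± 0.43 on the log2 scale, and Tnfrsf19 by 2.06 ± 0.49. Rnf43 had 1.01 without tumours 1 to 3 (adjusted p = 0.049). Nkd1 (2.22 ± 0.90, adjusted p = 0.052) and Notum, a secreted Wnt deacylase (0.50 ± 0.81, adjusted p = 0.63), were not called over the 9. With tumours 7 and 9 left out, both were called (log2 fold changes of 2.58 and 0.87, adjusted p = 0.0015 and 0.0026), and Nkd1 was called too without tumour 7, 8 or 9 alone (adjusted p of 0.015 to 0.035).

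Wnt ligands, receptors and secreted inhibitors showed no such common direction. Of 16 of these genes tested of 28 listed, 6 rose and 5 fell. Wnt5a rose from 1.53, 2.66 and 7.66 to 7.22, 8.17 and 20.8 CPM (1.60 ± 0.36) and Dkk3 from 4.75, 6.36 and 12.3 to 23.4, 99.1 and 196 CPM (3.71 ± 0.48). The central vein ligand Wnt2 fell from 5.01, 6.88 and 7.91 to 0, 0.0663 and 0.293 CPM (-5.84 ± 0.55) and its amplifier Rspo3 from 6.03, 8.61 and 11.8 to 0.0773, 0.187 and 0.629 CPM (-5.02 ± 0.45), with every tumour below every liver for both. Both are made by liver endothelial cells, whose markers also fell, as described below. In the destruction complex and its transcription factors 6 of 11 genes rose and 0 fell, among them Tcf7 (1.86 ± 0.60), which was not called without tumours 2 and 3 (adjusted p = 0.0501) or 1 to 3 (1.20, adjusted p = 0.11).

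Periportal hepatocyte genes fell, while perivenous genes were mixed. Of 16 perivenous genes 7 rose, 1 fell and 8 were not called. Of 18 periportal genes 0 rose and 14 fell, 10 of these with every tumour below every liver. Among all genes 26.4% rose and 21.3% fell. Glul stood at 76.3, 5146 and 12112 CPM against 744, 1034 and 1708 CPM (2.50 ± 0.85, adjusted p = 0.025), with 76.3 and 83.4 CPM in tumours 7 and 9. Slc1a2, a glutamate transporter, stood at 0.147, 1049 and 2779 CPM against 71.02, 151 and 277 CPM (3.10 ± 1.22, adjusted p = 0.046), and had 0.147 and 1.62 CPM in tumours 7 and 9. Its call was lost when any of tumours 1 to 6 or any of the 6 livers was left out, with adjusted p between 0.051 and 0.084. That of Glul was lost without liver 2 (adjusted p = 0.051) and without tumours 4 to 6 (adjusted p = 0.12). Rhbg, an ammonium transporter, rose from 5.37, 13.3 and 16.5 to 7.56, 188 and 228 CPM (3.56 ± 0.70), and Slc13a3, a dicarboxylate carrier, by 2.21 ± 0.74. Slc13a3 was not called without tumours 1 to 3 or 4 to 6 (adjusted p = 0.072 and 0.07). Perivenous drug-metabolising enzymes were not called. Cyp2e1 had 280.3, 3249 and 4382 CPM against 2518, 3462 and 7699 CPM (-0.78 ± 0.54), and Cyp1a2 had 0.147, 487 and 769 CPM against 115, 315 and 425 CPM (0.46 ± 1.05). Rgn, a calcium-binding enzyme, was the perivenous gene that fell, from 551, 1802 and 2376 to 127, 347 and 471 CPM (-2.44 ± 0.34). The count of perivenous genes that rose depended on the matching sets: it was 3 without tumours 4 to 6, 4 without tumours 1 to 3, and 4 without liver 2. Counts of 3 or 4 are near or under the share of all genes that rose.

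On the periportal side, Cps1, which starts the urea cycle, stood at 3.202, 447 and 608 CPM against 3404, 5515 and 6545 CPM (-4.01 ± 0.74, adjusted p = 4.86e-04), and the lowest value was that of tumour 8. Cyp2f2 fell from 11.7, 341 and 529 to 0.21, 2.55 and 8.32 CPM (-6.50 ± 0.88), the lipid carrier Mfsd2a from 3.64, 14.9 and 23.1 to 0.0491, 0.156 and 0.295 CPM (-6.28 ± 0.44), and the protease Ctsc from 125, 167 and 405 to 8.67, 17.6 and 37.4 CPM (-3.41 ± 0.40). Some periportal genes were higher in tumours 7 and 9, where the Wnt targets were low, than in the other tumours. Sds, serine dehydratase, stood at 837 and 922 CPM in tumours 7 and 9, at or under 24.9 CPM in the other 7 tumours, and at 71.02, 128 and 236 CPM in the livers. Gls2, liver glutaminase, stood at 189 and 199.7 CPM in those tumours against a tumour median of 3.34 and 167, 312 and 509 CPM in the livers. The histidine enzyme Hal stood at 84.7 and 73.8 CPM there against a tumour median of 0.304 CPM, but under every liver (132, 321 and 821 CPM). Cps1 (539 and 482 CPM) and Cyp2f2 (2.55 and 1.47 CPM) in tumours 7 and 9 lay within the range of the other 7 tumours. Over all 9 tumours Sds (0.43 ± 1.51) and Gls2 (-2.77 ± 1.17, adjusted p = 0.062) were not called, and Hal fell (-4.42 ± 1.49). The call of Hal was lost without tumours 4 to 6 (adjusted p = 0.053) and with tumours 1 to 3 and each other set counted once (adjusted p = 0.065), and its change was -10.38 without tumours 7 and 9. Without tumour 7 or 9, Gls2 was lower (adjusted p = 0.027 and 0.024), and without both, Sds fell by 4.60 (adjusted p = 0.0024). Tumours 7 and 9 are a closely matching set, so this contrast with the other tumours rests on what may be 1 tumour.

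**Figure D3:**
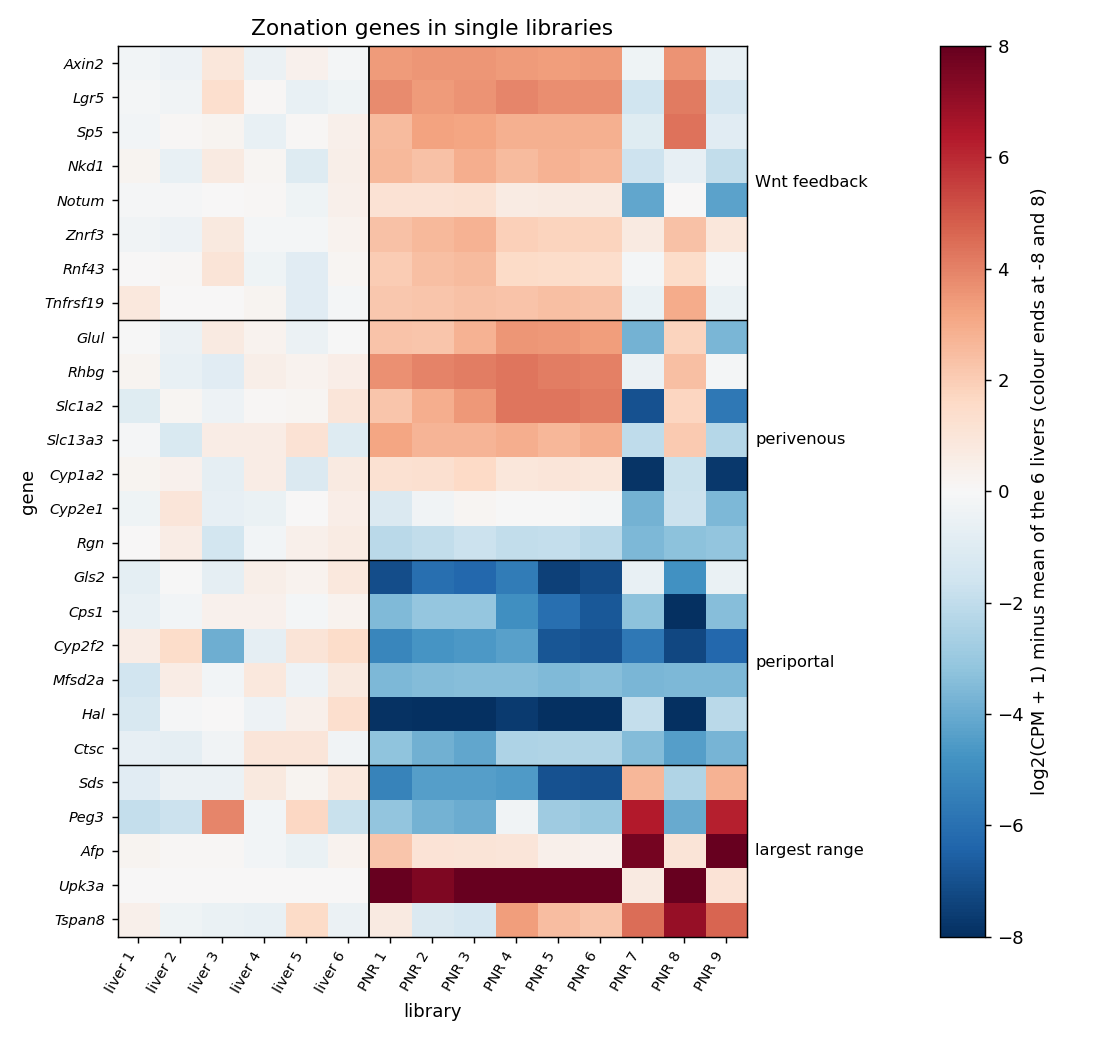
Heat map of log2(CPM + 1) minus the mean of the 6 livers for Wnt feedback, perivenous and periportal genes and for 5 genes with a large range among tumours. Columns are the 6 livers and 9 PNR tumours, red is above and blue below the liver mean, and the colour ends at -8 and 8. Tumours 7 and 9 are close to the liver mean for Axin2, blue for Lgr5, Glul and Slc1a2 and red for Sds and Peg3, unlike the other 7. They are the deepest red for Afp.

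Outside these pathways, 3 genes rose to much the same level in every tumour. Akr1c18, which inactivates progesterone, stood at 105.1, 136 and 166 CPM in the tumours against 0, 0.0309 and 0.393 CPM in the livers (10.34 ± 0.52, adjusted p = 1.01e-08), a narrow range among the tumours. Fgfr1, a fibroblast growth factor receptor, stood at 139, 168 and 191 CPM against 2.46, 3.96 and 7.22 CPM (5.23 ± 0.26, adjusted p = 1.01e-08). Scd2, a fatty acid desaturase of fetal and neural tissue, stood at 399, 529 and 899 CPM against 9.405, 17.3 and 24.1 CPM (5.09 ± 0.28, adjusted p = 1.49e-08). Each of these 3 genes separated all 9 tumours from all 6 livers. Akr1c18 has close paralogues in the Akr1c family, so its reads are not fully certain. Of 13 fibroblast growth factors, receptors and targets tested of 22 listed, 6 rose and 0 fell, including the hormone Fgf21 (0.451, 1.07 and 1.84 to 4.91, 12.3 and 32.2 CPM, 3.79 ± 0.51).

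Other named rises varied more among the tumours. Upk3a, a uroplakin of bladder epithelium, had 0 counts in the livers and 0.638, 321 and 902 CPM in the tumours, at least 9825-fold higher as a pooled ratio. Tumours 7 and 9 had only 0.638 and 1.14 CPM, and tumour 8 the most. The uroplakins were not raised as a set. Of 11 urothelial genes 4 were tested, 2 rose (Upk3a and Krt20), and Upk1a, Upk1b and Upk2 did not reach the filter. Krt20 stood at 43.8, 29.2 and 46.5 CPM in tumours 4, 5 and 6 and at a median of 9.18 CPM over the 9 (6.99 ± 1.86). Stc1, a secreted glycoprotein hormone, had 1.503, 14.9 and 50.7 CPM and Trim50, a ubiquitin ligase, 5.01, 11.1 and 16.6 CPM, at least 452-fold and 251-fold higher than in livers with 0 counts. Pnliprp1, a pancreatic lipase relative, was highest in tumours 1, 2 and 3 (183, 144 and 177 CPM) with a median of 3.63 CPM. Its ratio to the livers was 4516, with a counting interval of 810.5 to 178400. Of 17 pancreatic acinar genes only 3 reached the filter, and Pnliprp1 was the 1 that rose.

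The remaining rises with at most 3 counts over the livers are given as pooled ratios with exact 95% counting intervals. Hsd3b1, a steroid-forming dehydrogenase, had 0.883, 5.94 and 31.2 CPM (ratio 1133, 203 to 44780). Gkn3, a gene of the stomach, had 0.0521, 5.88 and 45.6 CPM (ratio 949, 170.2 to 37490). Tmprss7, a membrane serine protease, had 2.01, 29.4 and 43.9 CPM (ratio 501, 171 to 2431), and Gpx2, a glutathione peroxidase of epithelia, 0.431, 7.56 and 59.6 CPM (ratio 341, 117 to 1655).

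Bile duct and fetal genes rose in part. Of 15 biliary markers tested of 17 listed, 8 rose, 0 fell and 7 were not called, and in 5 every tumour lay above every liver. Spp1, a matrix protein of duct cells and macrophages, stood at 511, 793 and 11934 CPM against 27.7, 66.1 and 128 CPM (5.64 ± 0.999). The highest values were in tumours 7 (10495 CPM) and 9 (11934 CPM), which also had the most of the chloride channel Cftr (202 and 222 CPM against a tumour median of 2.16) and of Ggt1 (35.2 and 44.5 CPM). Cftr was not called without them (adjusted p = 0.1) or in DESeq2 (adjusted p = 0.052). Cldn7, a tight junction protein, had 0.164, 12.1 and 33.4 CPM against 0, 0.141 and 0.791 CPM (5.85 ± 1.43). The duct keratin Krt19 (0.121, 3.97 and 12.4 CPM against 0.247, 0.941 and 5.54 CPM, 1.32 ± 0.92) and Epcam (0, 0.912 and 9.72 CPM against 0.679, 1.27 and 4.35 CPM, 0.56 ± 1.02) were not called. The keratins of simple epithelia did rise, Krt8 from 129, 294 and 437 to 642, 838 and 1878 CPM (2.08 ± 0.35) and Krt18 from 154, 246 and 376 to 555, 683 and 2222 CPM (2.09 ± 0.37), as did Krt23 (4.59 ± 0.94) and Krt4 (5.53 ± 1.57, or 2.77 without tumours 7 and 9). In all, 6 of 10 keratins tested were higher and 0 lower. Prom1, a surface protein used to mark progenitors, had 0.26, 33.2 and 78.1 CPM against 0.716, 3.797 and 24.8 CPM (2.36 ± 1.20, not called). Tumours 4, 5 and 6 held 0.364, 0.26 and 0.331 CPM of it, and without them it was called (2.95, adjusted p = 0.0058). Ly6d rose (4.96 ± 1.39) mainly in tumours 1, 2 and 3, at 494, 389 and 309.9 CPM, and was not called without them (1.49, adjusted p = 0.12). Tspan8, a membrane protein of gut and ducts, reached 345 CPM in tumour 8 against a median of 14.8 CPM, and the brush border gene Vil1 94.9 CPM against 8.57 CPM.

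Of 12 hepatoblast and fetal liver genes tested of 14 listed, 6 rose and 1 fell. Afp, the fetal serum protein used as a tumour marker, stood at 283 and 563 CPM in tumours 7 and 9, while the tumour median was 1.93 CPM and the livers held 0, 0.502 and 0.767 CPM (7.60 ± 2.08, adjusted p = 0.0074). Without tumours 7 and 9 its log2 fold change was 2.16 (adjusted p = 0.0075), and DESeq2 gave 1.99 over all 9. Gpc3, a glypican of fetal liver, rose from 0.18, 0.803 and 1.48 to 0.41, 11.4 and 36.6 CPM (4.56 ± 0.86), and the growth factor Mdk from 0, 0.228 and 0.355 to 3.66, 10.9 and 59.2 CPM (6.12 ± 0.82). Mdk separated the groups completely, whereas the tumours reached down to 0.41 CPM for Gpc3.

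Adult liver functions were widely lower. All 16 major urinary protein genes tested of 21 listed fell, 15 of them with every tumour below every liver, and the summed level of the family was 0.0935, 1.35 and 7.43 CPM in the tumours against 120.4, 6666 and 74732 CPM in the livers. These secreted pheromone carriers depend on growth hormone and sex, and the copies are nearly identical, so single members are uncertain. Mup3 stood at 0, 0.0773 and 0.682 CPM against 42.6, 1378 and 7689 CPM. Both sexes were found among the livers and among the tumours by X- and Y-linked transcripts, and with sex in the fit Mup3 still fell (log2 fold change -13.15, adjusted p = 3e-07). The sex of tumour 8 is unclear, with 0.7 CPM of X-linked Xist and 3.16 CPM of Y-linked Ddx3y. Tumours 4, 5 and 6 had 39.1 to 53.4 CPM of Ddx3y. That fit counted tumour 8 as male because its Ddx3y exceeded its Xist. Of the growth hormone pathway 5 of 15 genes fell and 0 rose, with the receptor Ghr at 84.6, 226 and 322 CPM against 197, 498 and 821 CPM (-1.46 ± 0.33) and Egfr at 38.4, 66.2 and 177 CPM against 193, 460.4 and 997 CPM (-2.56 ± 0.41). Of 15 genes known to be higher in male liver 10 fell and 0 rose, and of 23 known to be higher in female liver 9 fell and 2 rose. Examples are the bile acid and steroid carrier Slco1a1 (0.123, 224 and 1098 CPM to 0.058, 0.176 and 0.523 CPM) and the female-biased sulfotransferase Sult3a1 (2.56, 44.2 and 489.9 CPM to 0, 0.0497 and 0.204 CPM).

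Drug and bile acid metabolism fell in part. Of 55 cytochrome P450 genes of families 1 to 4 tested of 58 listed, 25 fell and 3 rose. Cyp2b9 stood at 0, 0.166 and 0.41 CPM against 129, 203 and 377 CPM (-10.14 ± 0.58, adjusted p = 1.69e-08), Cyp2b10, a target of the xenobiotic receptor CAR, at 0, 0.0503 and 0.226 CPM against 9.69, 26.3 and 42.2 CPM (-8.35 ± 0.67), and Cyp3a11, the main steroid and drug oxidase, at 1.33, 7.62 and 79.3 CPM against 1973, 4017 and 7455 CPM (-7.94 ± 0.96). These families hold close copies, which counting may have split. The CAR gene itself, Nr1i3, fell from 86.5, 159 and 261 to 0.28, 14.8 and 65.4 CPM (-2.71 ± 0.91, adjusted p = 0.023). The call of Nr1i3 was lost with each matching set counted once (adjusted p = 0.068, and 0.064 with tumour 1 joined to 2 and 3) and without tumours 4 to 6 (adjusted p = 0.09), and its change was -4.40 without tumours 1 to 3. Of 16 bile acid synthesis genes tested of 17 listed, 7 fell and 1 rose. Cyp8b1, the 12-hydroxylase that sets the share of cholic acid, fell from 42.6, 64.3 and 169 to 0, 0.213 and 0.755 CPM (-8.37 ± 0.64), and every tumour lay below every liver. Cyp7a1, the rate-limiting enzyme of the pathway, stood at 0.135, 139 and 198 CPM against 119, 217 and 435 CPM and was not called (-1.14 ± 0.92).

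Secreted proteins showed the same direction. Alb fell from 26698, 45558 and 57070 to 3033, 7870.1 and 10504 CPM (-2.51 ± 0.30, adjusted p = 1.61e-05), with tumour 8 the lowest. Serpina3k, a serpin with close copies, fell from 2612, 5932 and 9081 to 0.935, 18.3 and 56.03 CPM (-7.93 ± 0.84). Among 19 complement genes tested 16 fell and 0 rose, such as C9, the pore-forming component (118, 695 and 1322 CPM to 10.2, 29.96 and 70.7 CPM, -4.28 ± 0.53), and C8b (-4.51 ± 0.72). Among 21 coagulation genes 14 fell and 1 rose, and among 33 urea cycle and amino acid genes 23 fell and 0 rose. Tdo2, which opens tryptophan breakdown, fell from 919.9, 1335 and 2136 to 0.14, 41.2 and 120.4 CPM (-4.83 ± 0.80), and Otc of the urea cycle from 419, 557 and 743 to 47.3, 70.7 and 131 CPM (-2.81 ± 0.24). Hamp, the iron hormone hepcidin, had 0.156, 0.922 and 1.57 CPM against 0.37, 224 and 566 CPM (-8.35 ± 0.99), and the lowest liver, liver 3, lay within the tumour range. Saa2, an acute phase protein, had 0.0234, 7.79 and 69.1 CPM against 23.5, 46.3 and 18847 CPM, and its log2 fold change of -7.79 ± 1.71 became -4.41 without liver 5, which held most of the group's reads. Of 18 acute phase genes 10 fell and 1 rose, and 6 fell without tumours 2 and 3. The clock repressor Bhlhe41 fell from 54.7, 644 and 1767 to 1.31, 2.42 and 4.56 CPM (-7.97 ± 0.62).

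**Figure D4:**
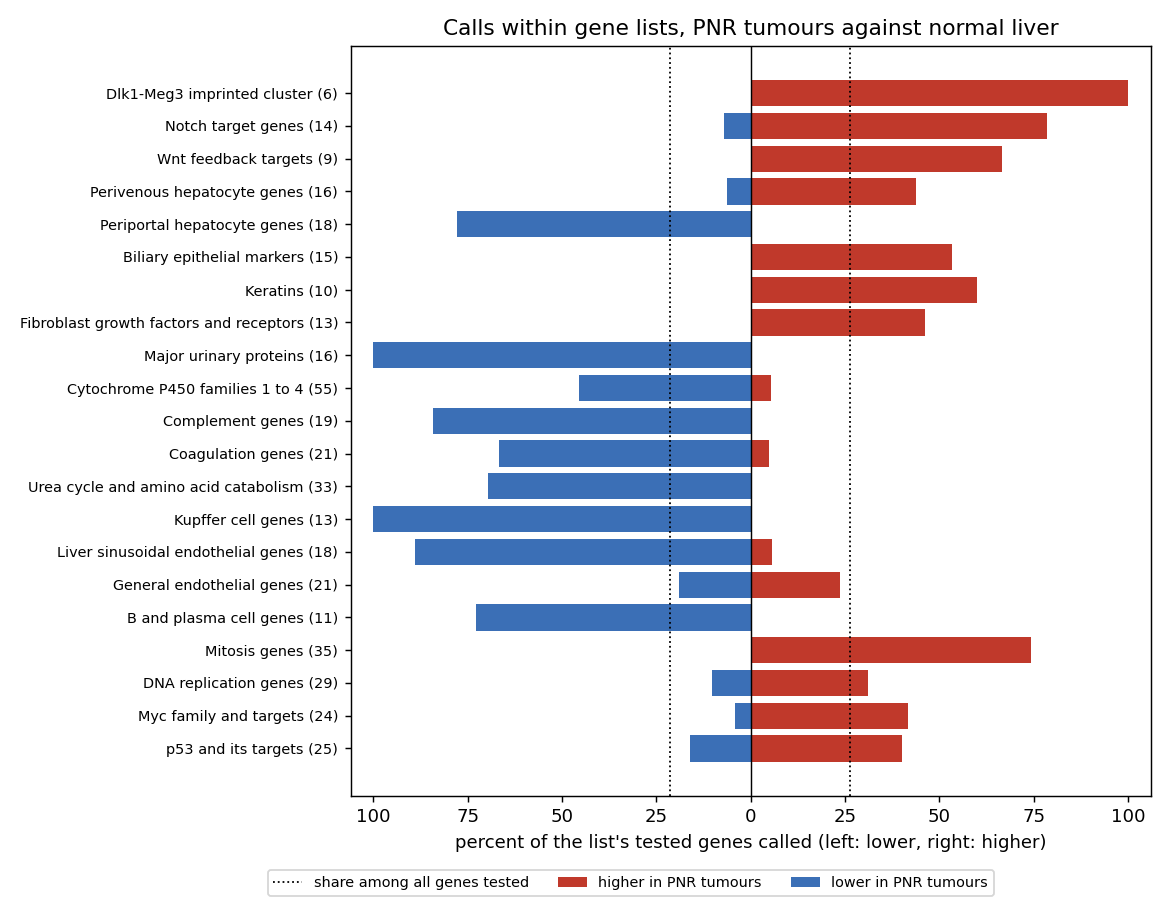
Percent of the tested genes of 21 lists called lower (bars to the left, blue) or higher (to the right, red) in PNR tumours, with the number tested after each name and dotted lines at 21.3% and 26.4%, the shares among all genes tested. The Notch target, Dlk1-Meg3 and mitosis lists lean to the right, and the urinary protein, Kupffer cell, sinusoidal endothelial, complement and periportal lists to the left.

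Genes of other cells of the liver fell as well. In whole tissue, fewer cells of a type and less RNA per cell cannot be told apart. All 13 Kupffer cell genes, which mark the resident macrophages, were lower, and in 8 of them every tumour lay below every liver. Their summed level was 115, 199 and 328 CPM in the tumours and 858, 1849 and 3032 CPM in the livers. Clec4f stood at 0.0491, 0.257 and 4.49 CPM against 165, 349 and 521 CPM (-7.63 ± 0.97, adjusted p = 2.64e-05), Vsig4 fell by 6.06 ± 0.77 and Timd4 by 6.50 ± 0.60 on the log2 scale, and Marco had 0, 0.156 and 1.26 CPM against 6.44, 77.4 and 281 CPM (-8.59 ± 0.86). Of 20 wider macrophage and monocyte genes 5 rose and 9 fell, and the 5 became 3 without liver 2, 5 or 6.

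Sinusoidal endothelial genes, of the cells that line the liver's capillaries, fell in 16 of 18 cases, with no overlap in 13. The lectin Clec4g stood at 0.0967, 1.17 and 12.04 CPM against 32.7, 78.8 and 121 CPM (-4.59 ± 0.87), and the nuclease Dnase1l3 at 0.0491, 0.868 and 11.05 CPM against 36.1, 39.3 and 47.9 CPM (-3.82 ± 0.80, or -6.07 without tumours 1 to 3). Lyve1 had 0.232, 8.76 and 15.5 CPM against 2.56, 12.03 and 21.7 CPM and was not called (-0.67 ± 0.71). Gpr182, a receptor of sinusoidal endothelium, went the other way in every tumour, at 29.3, 61.3 and 74.9 CPM against 7.77, 11.3 and 16.3 CPM (2.35 ± 0.24, adjusted p = 4.79e-06). General endothelial genes were mixed, 5 higher and 4 lower of 21. Apln, a peptide of sprouting vessels, stood at 48.8, 37.5 and 42.99 CPM in tumours 4, 5 and 6 and at 6.92 CPM in the median tumour, against at most 0.123 CPM in a liver (8.06 ± 1.06). Esm1, another gene of sprouting vessels, rose from 0.264, 1.11 and 6.099 to 13.5, 29.9 and 81.97 CPM (4.25 ± 0.63), with no overlap. Cd34 reached 53.4, 70.1 and 99.3 CPM in tumours 4, 5 and 6 (3.28 ± 0.69, or 1.86 without them), and Vwf fell from 11.7, 18.9 and 114 to 2.95, 6.497 and 10.4 CPM (-2.43 ± 0.47, or -1.48 without liver 3). The summed endothelial list ran to 122, 253 and 1008 CPM in the tumours and 204, 300.4 and 455 CPM in the livers. Without tumours 4 to 6, 9 general endothelial genes were lower instead of 4. The part of endothelial cells in the Notch4 and Dll4 calls was not tested.

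Of 28 stellate cell and fibroblast genes 5 rose and 7 fell. Col1a1, the main fibrillar collagen, rose from 2.66, 4.78 and 7.67 to 5.09, 42.3 and 82.9 CPM (3.001 ± 0.63), while the stellate cell enzyme Lrat fell from 12.7, 35.8 and 39.9 to 0.445, 2.75 and 7.93 CPM (-3.13 ± 0.49) and decorin, Dcn, from 122, 195 and 312 to 5.48, 13.5 and 39.2 CPM (-3.46 ± 0.40). Without tumours 4 to 6 only 1 of these genes was higher. Of 11 B and plasma cell genes 8 fell and 0 rose, as in Cd79b (0.818, 4.18 and 19.5 CPM to 0.164, 0.591 and 0.85 CPM, -3.50 ± 0.60) and Ms4a1 (-4.43 ± 0.71), yet the summed list, at 197, 267 and 502 CPM against 153, 299.6 and 371 CPM, overlapped. Among 16 T and NK cell genes 8 fell and 0 rose, and 3 fell without tumours 4 to 6. Of 25 BMP and activin genes 22 were tested, 6 rose and 10 fell, beside 26.4% and 21.3% of all genes. The rises were thus near the share of all genes and the falls above it. The falls included Hamp (log2 fold change -8.35), Gdf2 (-5.88), Bmp5 (-2.95), Bmp2 (-2.52) and Smad6 (-2.46). Bmp7 stood at 5.82, 11.5 and 36.2 CPM against 0.132, 0.595 and 1.04 CPM (4.79 ± 0.58) and the activin inhibitor Fstl3 at 1.795, 7.09 and 92.3 CPM against 0, 0.121 and 0.492 CPM (6.94 ± 1.25), and every tumour lay above every liver for both.

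**Figure D5:**
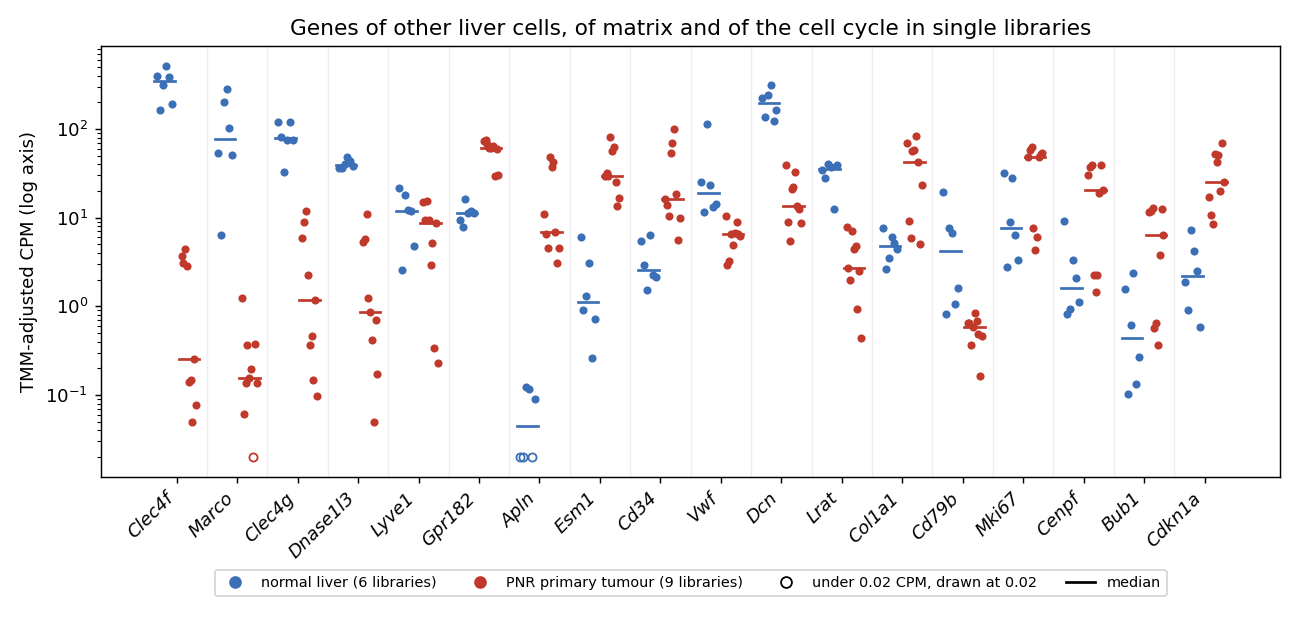
TMM-adjusted CPM (log axis) of genes of Kupffer cells, endothelium, stellate cells, B cells and the cell cycle, with 1 point per library, blue for the 6 livers and red for the 9 PNR tumours, lines at medians, and open points under 0.02 CPM. Clec4f, Clec4g and Dcn of every tumour lie below every liver, Gpr182 and Esm1 lie above, and the cell cycle genes Mki67, Cenpf and Bub1 overlap.

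Mitosis genes were higher, with overlap throughout. Of 35 mitosis genes tested 26 rose and 0 fell, beside 26.4% and 21.3% of all genes, but in 0 did every tumour exceed every liver. Cenpf, a kinetochore protein, had 1.44, 20.7 and 39.9 CPM against 0.818, 1.62 and 9.25 CPM (2.88 ± 0.85), Bub1, a checkpoint kinase, 0.365, 6.38 and 12.8 CPM against 0.102, 0.444 and 2.37 CPM (3.02 ± 0.94, adjusted p = 0.015, and 0.069 without tumours 1 to 3), and Ube2c a log2 fold change of 3.63 ± 0.95. Mki67 had 4.29, 49.03 and 63.4 CPM against 2.76, 7.64 and 32.2 CPM and was not called (1.49 ± 0.71, adjusted p = 0.092). Tumours 4, 5 and 6 held the lowest levels of it, 7.63, 4.29 and 6.099 CPM, within the range of the livers. Mki67 was called without them (1.99, adjusted p = 0.0092) and without liver 1 (1.97, adjusted p = 0.049). The count moved with the libraries, from 26 to 11 without tumours 2 and 3, 6 without tumours 1 to 3, and 13 or 14 without liver 2, 3, 5 or 6. Of 29 DNA replication genes tested 9 rose and 3 fell. These shares are near those of all genes for the rises and under them for the falls. Of 24 replication-dependent histone genes 0 rose and 3 fell. The 9 replication genes became 14 without any 1 of tumours 4, 5 and 6, 21 without all of these, and 5 without tumours 1 to 3.

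Regulators of the cycle rose in part. Ccnd1, cyclin D1, stood at 185, 293 and 479.6 CPM against 24.2, 72.7 and 130.4 CPM (2.09 ± 0.36, adjusted p = 2.91e-04) with every tumour above every liver. Of 24 Myc family members and targets 10 rose and 1 fell, and in 9 every tumour was above every liver. Mycn stood at 3.75, 11.4 and 26.1 CPM against 0.135, 0.421 and 1.67 CPM (4.18 ± 0.61) and Myc at 4.02, 10.2 and 20.6 CPM against 1.35, 2.87 and 5.796 CPM (1.80 ± 0.44). Of 25 genes of p53 and its targets 10 rose and 4 fell. Trp53 itself stood at 14.1, 21.1 and 24.6 CPM against 3.68, 4.78 and 10.9 CPM (1.62 ± 0.25, adjusted p = 1.19e-04), Cdkn1a, the p21 inhibitor, at 8.49, 25.1 and 70.6 CPM against 0.586, 2.19 and 7.35 CPM (3.49 ± 0.63) and the stress hormone Gdf15 at 6.97, 17.3 and 26.8 CPM against 0.946, 1.79 and 8.34 CPM (2.59 ± 0.47). Trp53 and Cdkn1a did not overlap between the groups. The labels give no alleles, so these levels were not read against a genotype.

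The 9 PNR tumours were also set against the 11 PPTR primary tumours, the other dissected primary tumour model of the series, whose name and alleles the labels do not explain either. This fit does not use the livers. Ribosomal-repeat features took 15.32%, 5.908% and 18.46% of gene counts in PPTR tumours 3, 4 and 8 and 0.202% to 0.4922% in the rest. The PNR tumours had 0.919% to 2.068%, a range that held no PPTR tumour. The PPTR libraries stand in the earlier block with the livers, so model and block cannot be told apart. The part of library makeup in the differences below was not tested. Of 15645 genes tested 4142 (26.5%) were higher and 3793 (24.2%) lower in PNR. The Dlk1-Meg3 RNAs were higher in PNR than in PPTR. Meg3 stood at 115, 307 and 472 CPM in PNR, on the scale of this fit, against 0.0414, 0.301 and 2.82 CPM in PPTR (8.87 ± 0.69, adjusted p = 1.06e-08), Rian at 245, 441 and 665 against 0.156, 0.593 and 13.9 CPM (7.62 ± 0.89) and Mirg at 15.5, 40.2 and 63.1 against 0, 0.106 and 0.604 CPM (8.07 ± 0.59). Rtl1 had 0 counts in the PPTR tumours and was at least 1670.0-fold higher. Igf2 and H19 overlapped between the models, with far lower medians in PPTR. Igf2 stood at 638, 2257 and 3183 CPM against 0.0613, 0.279 and 1528 CPM and narrowly missed a call (3.81 ± 1.60, adjusted p = 0.052). H19 stood at 1172, 3085 and 4307 CPM against 0.677, 31.4 and 3735 CPM and was called narrowly (3.00 ± 1.19, adjusted p = 0.04).

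Fgfr1 stood at 158, 189 and 218 CPM in PNR against 0.628, 2.29 and 24.5 CPM in PPTR (5.09 ± 0.59) and Akr1c18 at 121, 153 and 189 against 0.182, 2.24 and 17.3 CPM (5.34 ± 0.62). The Notch targets Heyl (4.01 ± 0.32), Nrarp (3.36 ± 0.35) and Hes1 (1.66 ± 0.19) were higher in PNR, and of the 14 tested 8 were higher and 1 lower. Notch1 was higher (1.17 ± 0.20), and Notch4 (0.40 ± 0.56), Jag2 (0.30 ± 0.46) and Dll4 (0.07 ± 0.48) were not called. Of 9 Wnt feedback targets 8 were higher and 0 lower, with Axin2 at 3.69, 76.5 and 90.1 CPM against 0.558, 1.65 and 8.44 CPM (4.65 ± 0.60) and Lgr5 at 1.53, 104.9 and 147 against 0, 0.575 and 2.81 CPM (6.64 ± 0.83), and of 16 perivenous genes 12 were higher and 1 lower. Trp53 (1.60 ± 0.18) was higher in PNR too. Bmp7 was higher by 5.36 ± 0.67 and Mycn by 2.70 ± 0.41.

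Liver functions were lower than in PPTR in some lists. All 12 urinary protein genes tested were lower, Alb had a log2 difference of -2.69 ± 0.33 and Cyp2f2 one of -6.78 ± 0.86, and 12 of 13 Kupffer cell genes were lower. Scd2 (0.38 ± 0.42), Spp1 (0.92 ± 0.69), Apln (0.14 ± 0.95) and Esm1 (-0.61 ± 0.68), which stood far above the livers, were not called against PPTR. In edgeR's test 0 of 35 mitosis genes were called against PPTR, 0 had an unadjusted p under 0.05, and the lowest adjusted p was 0.121. DESeq2 also called 0, while 7 were called in edgeR's test without PNR tumours 4 to 6. A p that misses the threshold does not show that the models are alike.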

How the data were processed

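RNA sequencing libraries of 9 PNR primary tumours and 6 normal livers were compared, each library as a replicate. The values are read counts per gene symbol, as deposited. The submitters' processing notes name BWA, STAR and HTSeq and the mouse build mm9, with no version, setting, strand option or annotation. Every file held 5 entries for reads given to no gene, which were kept out of library sizes and tests. Reads placed in no gene feature were 32.33% to 48.88% of counted entries in the livers and 16.08% to 33.65% in the tumours. Tumours 4, 5 and 6 had the highest such shares of the tumours, 32.4%, 33.65% and 33.58%. They also had the most gene symbols with a read, 28259, 29636 and 29869. Tumour 1 had 25175, the other tumours 18916 to 20915 and the livers 17065 to 19132. The part of this difference in patterns of tumours 4 to 6 was not tested.

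Counts were filtered (filterByExpr by group, minimum count 10, minimum total 15, large group size 10, proportion 0.7), scaled by TMM and fitted with edgeR 4.0.16 in R 4.3.3 by its quasi-likelihood F test, with Benjamini-Hochberg adjustment over all genes tested. The standard error is the fold change divided by the square root of F. The fit was tested on simulated data. Against 0 counts in a group, a ratio uses a floor of 3 counts over the group and is a lower bound, and with 1 to 3 counts it has an exact 95% interval. Both cover counting error only. The composition test was an exact permutation test in scipy 1.17.1.

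Genes were named by rule: the 12 largest called rises and falls with at least 10 CPM in the higher group (major urinary proteins aside), up to 5 called members each way of each described list with at least 5 CPM, a set of anchor genes, and the 10 genes with the largest range among tumours. All 86 gene lists and the members were chosen with earlier results of these data known. 17 of 1535 listed symbols had no row. Some genes that the rule names are not reported here. Alternatives were DESeq2 1.42.0, other scalings, no filter, covariates, summed matching sets and left-out libraries.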

Additional observations from a re-analysis of the deposited data

Results flagged for a closer look

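Levels of the named genes were searched, group by group, for a highest or lowest library that stood far from the rest (Dixon's test at the 95% level). Of 265 pairs of gene and group 13 met it, which is about the 1 in 20 that chance gives. The values below therefore describe single libraries and are not results in themselves.

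Liver 3 gave 6 of them. It had the lowest Hamp (0.37 CPM, next liver 97.9), Ghr (197 CPM, next 483) and Clec4g (32.7 CPM, next 74.998). It had the highest Vwf (114 CPM, next 25.2), Lgr5 (17.3 CPM, next 6.51) and Notch1 (80.1 CPM, next 39.9). Without liver 3, 4300 genes were higher and 3202 lower.

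Among the other livers, liver 5 had the highest Krt19 (5.54 CPM, next 1.38) and the lowest Lrat (12.7 CPM, next 28.01), and liver 2 the lowest Pdk4 (1.84 CPM, next 5.46).

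Tumour 8 stood apart in 4 genes. It had the lowest Alb (3033 CPM, next 6381), Fabp1 (85.95 CPM, next 386), Thrsp (1.47 CPM, next 5.54) and Igfbp4 (374 CPM, next 529.7). Without tumour 8, 4056 genes were higher and 3367 lower.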

How the results depend on the processing

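The 4157 higher and 3355 lower genes became 4385 and 3715 in DESeq2, 4058 and 3013 with no filter on low counts, and 2413 and 1917 when over 2-fold was asked for. With each matching set of tumours summed to 1 sample the counts were 3434 and 2720, and with wider sets, which join tumour 1 to 2 and 3, 3119 and 2369. Leaving out 1 library at a time gave 3845 to 4300 higher genes, 2946 to 3367 lower ones, and 651 to 703 called members of the gene lists, beside 707. In a fit that added each library's ribosomal-repeat share, 13 genes were higher, 65 lower and 31 list members called. That share does not overlap between tumours and livers, so the fit leaves little of the difference to the group, and the 2 cannot be told apart. In that fit Hey2 turned to -0.632, Saa2 to 3.63 and Stc1 to -17.25, with adjusted p of 0.919, 0.722 and 1, and 124 of the 166 named genes kept their direction without a call. In the share of calls that are higher, 55.3%, no other setting moved by over 10 percentage points, against 16.7% there. Without tumours 7 and 9 Peg3 turned to -4.536 and Sds to -4.601. Scaling by RLE or upper quartiles lost no call of the named genes, and sex as a covariate lost 4, those of Afp, Krt4, Slc1a2 and Egr1. For Slc1a2, Dll4, Igf2bp3, Glul and Igfbp7 leaving out a single library lost the call. Against PPTR 7935 genes were called, 12546 with no filter on low counts and 7609 without PPTR tumours 10 and 11. The cause of that rise was not tested. No paired analysis was possible because the labels give no replicate numbers to these tumours and livers, and the numbers used here only name the libraries. Fits that leave out a whole matching set, leave out tumour 8 or use the wider sets were chosen after seeing the data. Depth limits genes near 0 in the livers, whose ratios cover counting error only.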

Other observations

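Gene groups outside the pathways above moved too. Of 24 basement membrane and adhesion genes 11 rose and 2 fell, and in 7 every tumour lay above every liver. Lama5, a laminin chain, stood at 59, 87.8 and 179 CPM in the tumours against 4.29, 5.77 and 17.8 CPM in the livers (3.62 ± 0.38, adjusted p = 5.94e-06). Of 21 matrix proteases and inhibitors tested 11 rose and 1 fell, and 4 rose without tumours 4 to 6. Plat, tissue plasminogen activator, stood at 25.2, 49.5 and 868 CPM against 0.556, 0.947 and 1.48 CPM (7.63 ± 1.16, adjusted p = 1.09e-04). The collagenase Mmp13 stood at 16.4, 26.3 and 27.6 CPM in tumours 4, 5 and 6, at a tumour median of 2.27 and at most 0.396 CPM in a liver (4.93 ± 1.19). Of 16 hypoxia response genes tested 6 rose and 1 fell, with Egln3, an oxygen-sensing hydroxylase, at 27.6, 45.2 and 92.7 CPM against 4.09, 8.83 and 14.4 CPM (2.43 ± 0.34), and Ndrg1 at 114, 191 and 579 CPM against 10.9, 15.9 and 26.8 CPM (3.81 ± 0.42). Immediate early genes, which respond to handling and to growth factors, rose in 12 of 17 cases and in 4 without tumours 4 to 6. Jun stood at 19.9, 72.98 and 125 CPM against 9.51, 10.5 and 22 CPM (2.44 ± 0.40), and Egr1 (2.03 ± 0.68) was not called without tumours 4 to 6 (0.86, adjusted p = 0.21).

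Lipid and sugar genes moved in part. Of 33 genes of fatty acid oxidation and ketogenesis 20 fell and 5 rose. Fabp1, the fatty acid carrier of hepatocytes, stood at 85.95, 407 and 1100.3 CPM against 1065, 3289.6 and 6433 CPM (-2.78 ± 0.46), while Pdk4, a switch from glucose to fat use, stood at 13.5, 57.7 and 95.9 CPM against 1.84, 6.08 and 7.93 CPM (3.35 ± 0.47). Of 22 fatty acid synthesis genes tested 7 fell and 2 rose, Scd2 being 1 of these. Thrsp, a lipogenic regulator, fell from 0.679, 377 and 1042 to 1.47, 8.57 and 10.3 CPM (-5.90 ± 0.88). Of 6 glycolysis genes of the liver isoforms 5 fell, among them the glucose transporter Slc2a2, at 3.48, 36.6 and 135 CPM against 235, 373 and 506 CPM (-2.75 ± 0.67, or -4.23 without tumours 1 to 3). Of 24 cholesterol synthesis genes tested 7 fell and 1 rose, of 16 lipid droplet genes 3 and 2, and of 16 genes of gluconeogenesis and glycogen 7 and 4. Among all genes 21.3% fell and 26.4% rose, so the lipid droplet counts were under both shares. Of 27 interferon-stimulated genes 9 fell and 0 rose, as in Iigp1 (-3.02 ± 0.73), and 18 fell without tumours 1 to 3.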
